A study of Homo sapiens with 4 samples.

Results

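Metallothioneins and the proteins that act with them in zinc handling were followed in A375 cells given a medium-chain fatty acid. The members were 9 genes taken by symbol from a deposited table of 56832 genes: the metallothionein genes MT2A, MT1A, MT1E, MT1F, MT1G, MT1M and MT1X, the transcription factor gene MTF1, and SLC30A1, which encodes the zinc exporter ZnT1. All 9 symbols were in the table. A375 is an established human melanoma cell line, and its genotype is given here only as a label, wild type. The octanoate group received 1 mM octanoate for 48 h and the vehicle group received isopropanol for 48 h, with 2 libraries per group. Both groups were grown in the same serum-containing medium, the labels name no metal treatment, and the study asks which genes and signatures rise under the fatty acid. The labels do not say that the 2 libraries of a group came from separate cultures. The p-values therefore measure only the spread between these libraries, and that spread may be technical. For each gene the fit also borrows this spread from other genes of similar level.

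Metallothioneins are short, cysteine-rich proteins that bind zinc and copper, and also cadmium, in clusters held by cysteine thiols. MTF1 is a zinc-finger protein that senses free zinc, binds short DNA elements called metal response elements and raises transcription of the metallothionein genes and of SLC30A1. ZnT1 sits mainly in the plasma membrane and moves zinc out of the cytosol, so metallothionein and ZnT1 are known as the storage and the export arm of the same response.

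The metallothionein genes lie side by side on chromosome 16, from MT2A (chr16:56608199-56609497, plus strand) through MT1E (chr16:56625475-56627112), MT1M (chr16:56632233-56633986), MT1A (chr16:56638666-56640087), MT1F (chr16:56657694-56660698) and MT1G (chr16:56666731-56668065, the only member of the cluster on the minus strand) to MT1X (chr16:56682424-56684196). MTF1 (chr1:37809567-37859620) and SLC30A1 (chr1:211571568-211578742) are on the minus strand of chromosome 1. These are hg38 positions of whole genes in GENCODE 29, and all 9 are annotated as protein coding. The coding sequences of the 7 metallothionein genes all have 186 bases with the stop codon and encode 61 residues, 20 of them cysteines. The isoforms that held more than single reads are shown from GENCODE 29, because their likeness decides how well reads can be told apart. Capitals mark bases that differ from MT2A at the same position of the coding sequence.
MT2A: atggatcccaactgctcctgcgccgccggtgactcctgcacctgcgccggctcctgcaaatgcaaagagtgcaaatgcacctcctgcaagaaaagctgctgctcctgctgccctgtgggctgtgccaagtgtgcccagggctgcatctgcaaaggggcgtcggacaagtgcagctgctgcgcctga
MT1X: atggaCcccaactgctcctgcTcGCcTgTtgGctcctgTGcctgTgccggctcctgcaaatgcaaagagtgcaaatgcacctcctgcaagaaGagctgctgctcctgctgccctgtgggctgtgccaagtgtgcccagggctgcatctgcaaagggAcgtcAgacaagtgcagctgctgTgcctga
MT1F: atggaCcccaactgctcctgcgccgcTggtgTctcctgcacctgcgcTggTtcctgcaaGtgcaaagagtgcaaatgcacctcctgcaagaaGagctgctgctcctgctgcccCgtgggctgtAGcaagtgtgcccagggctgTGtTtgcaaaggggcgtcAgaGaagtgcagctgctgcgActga

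MT1X differed from MT2A at 14 of these bases and MT1F at 16, and identity to MT2A over the 6 MT1 genes ran from 89.8% for MT1M to 95.2% for MT1G. The longest stretch identical to MT2A was 63 bases in MT1X, 32 in MT1F and 65 in MT1G. Over all GENCODE 29 transcripts of a gene, 3.02% of the 50-base stretches of MT2A also occurred in another gene, against 1.22% for MT1F and 18.3% for MT1X. The value for MT1X includes the gene AC026461.1, whose exons overlap those of MT1X on the same strand. For the other isoforms the shares were 5.76% (MT1A), 7.10% (MT1E), 9.87% (MT1M) and 16.5% (MT1G). SLC30A1 shared no such stretch with another gene, and MTF1 shared 0.891%. The read length and the rule for reads that match several genes are not given in the sources used here, so the split between isoforms, and MT1X in particular, is uncertain, and the sum over the 7 metallothionein genes is given beside them.

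The regulatory sequence is shown for the members found in the RefSeq promoter table (GRCh38.p14), which held 4 of the 9: MT2A, MT1X, SLC30A1 and MTF1. The core of the metal response element was searched on both strands as TGCACNC and TGCGCNC in the 250 bases before the RefSeq start. The window of MT2A (chr16:56608334-56608583) held 7 matches, that of MT1X (chr16:56682220-56682469) 4, that of SLC30A1 (chr1:211579162-211579411) 1 and that of MTF1 (chr1:37859593-37859842) none. Each match is printed 5′ to 3′ on the strand that carries it, with the match in capitals and with the position of its first base on the gene's strand, counted back from the start.
MT2A, -246, chr16:56608334-56608352, gene's strand: ccgcTGCACCCagcccctt
MT2A, -168, chr16:56608408-56608430, opposite strand: cccggctcTGCACACgggccgcg
MT2A, -153, chr16:56608423-56608445, gene's strand: gagccgggTGCGCCCggcccagt
MT2A, -139, chr16:56608437-56608459, gene's strand: cggcccagTGCGCGCggccgggt
MT2A, -88, chr16:56608488-56608510, opposite strand: gcgctgccTGCACACgccccgcg
MT2A, -54, chr16:56608522-56608544, gene's strand: ggggctttTGCACTCgtcccggc
MT2A, -8, chr16:56608568-56608583, gene's strand: tgccgcgcTGCACTCc
MT1X, -150, chr16:56682312-56682334, gene's strand: ccccgcggTGCGCCCggcgctgg
MT1X, -122, chr16:56682340-56682362, gene's strand: cgggttgcTGCACCCggcccagg
MT1X, -78, chr16:56682384-56682406, opposite strand: ctcgtcctTGCACCCgcccctgc
MT1X, -53, chr16:56682409-56682431, gene's strand: ggggcctcTGCGCCCggccctct
SLC30A1, -49, chr1:211579196-211579218, opposite strand: ctttgcttTGCACTCggaacccc

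**Figure D1:**
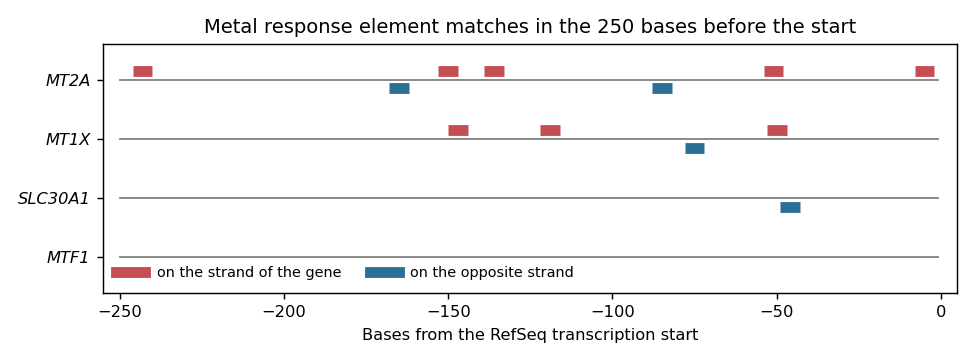
Matches to the metal response element core in the 250 bases before the RefSeq start of MT2A, MT1X, SLC30A1 and MTF1. The horizontal axis gives bases from the start, and blocks above or below a line are on the gene's strand or the opposite strand; MT2A carries 7 matches, MT1X 4, SLC30A1 1 and MTF1 none.

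Of 27305 genes with a promoter of this length in the table, 28.5% held at least 1 match, 0.458% at least 4 and 0.0403% (11 genes) at least 7. For these shares the promoter with most matches counted where a gene had several, while each member was counted from its first listed promoter. A match describes these letters only and is not a measured binding site. The windows depend on the start chosen. GENCODE 29 starts MT2A at 56608199, so the whole RefSeq window of MT2A with its 7 matches lies inside the GENCODE gene. The windows of MT1X and MTF1 run past their GENCODE starts (56682424 and 37859620) into the gene, and that of SLC30A1 lies before its GENCODE start (211578742).

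Sequencing depth was similar in the 4 libraries, with 67785956 to 78005035 reads recovered from the normalised values. SOX10, a lineage factor of melanocytes and melanoma, was abundant in every library (34072 to 41363 normalised counts). Of the pigment genes, MLANA (34.9 to 52.0) and TYR (1.93 to 3.93) were low in all 4. Of 8 melanoma markers 7 were tested, and 1 was called higher and 2 lower (called means a limma adjusted p under 0.05, which 29.9% of all tested genes had). S100B fell from 4234 and 3741 to 1917 and 1746 (log2 difference -1.12, limma adjusted p = 9.15e-12) and MITF, the melanocyte master regulator, from 3533 and 3330 to 2414 and 2511 (log2 difference -0.48, limma adjusted p = 2.33e-06). PMEL, at 65.8 and 65.9 in vehicle and 98.2 and 95.4 in octanoate, rose (log2 difference 0.55, limma adjusted p = 0.0289). Markers of other cell types were counted from lists of 4 genes each. The summed level of the keratinocyte markers was 950 to 1124 in vehicle and 221 to 269 in octanoate, nearly all of it from KRT14, with KRT1 at 0 in every library. The fibroblast sum was 1087 to 1111 against 902 to 918, and the endothelial sum 576 to 580 against 787 to 792. The leukocyte sum was 23.3 to 30.4 against 22.1 to 26.0. Of the keratinocyte markers 1 was tested and called lower, of 4 fibroblast markers tested 2 were called lower, and of 4 endothelial markers tested 2 were called higher. The 1 leukocyte marker tested was not called. Their part in the results below was not tested.

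The metallothionein pool of these cells was almost entirely MT2A, and octanoate left its level within the spread of the replicates. MT2A, the isoform that most human cell types express, had 21304 and 20325 normalised counts under vehicle and 21348 and 20256 under octanoate. The groups overlapped fully: the highest and the lowest library were both octanoate libraries. The means were 20815 ± 692 (SD, n = 2) and 20802 ± 772 (SD, n = 2). Fitted with limma on log2(normalised count + 1), the log2 difference of octanoate minus vehicle was -0.00097 (SE 0.06, Benjamini-Hochberg adjusted p = 0.993). Its 95% interval ran from -0.12 to 0.12, which is 0.920 to 1.08 as a fold. A change of MT2A within that interval was not detectable. In bulk RNA, fewer cells that express a gene and less RNA per cell cannot be told apart.

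MT1X, an MT1 isoform that is widely expressed and inducible by metals, was the only other metallothionein with more than 13 reads in a library. Its normalised counts were 88.3 and 89.1 in vehicle (90 and 92 reads) and 66.4 and 69.4 in octanoate (69 and 64 reads). Both octanoate libraries were below both vehicle libraries. The log2 difference was -0.38 (SE 0.19, 95% interval -0.77 to 0.01), and it did not pass the test (limma adjusted p = 0.137). MT1F, another MT1 isoform, had 12.8 and 10.7 normalised counts in vehicle and 9.63 and 11.9 in octanoate, from 10 to 13 reads per library. Its groups overlapped, and the wide 95% interval of its log2 difference, -1.09 to 0.87, shows how little 10 to 13 reads can resolve (limma adjusted p = 0.890).

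The remaining 4 isoforms were at the limit of detection. MT1A had 1 read in vehicle 1 and 0 in the other libraries. MT1M had 1 read in vehicle 2 only. MT1E and MT1G each had 1 read in octanoate 2 only. These genes had a mean below the 10 normalised counts required for testing and no fold is given for them, since a count of 0 allows up to 3 reads, or 2.89 to 3.25 normalised counts in a library. That limit covers counting error only. Among other metallothionein genes and pseudogenes, 12 were in the table and together they held 14 to 19 reads per library. MT3, the isoform known from brain, had 0.963 to 2.17 normalised counts, and MT1H, MT1L, MT1CP and MT4 had no read in any library.

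**Figure D2:**
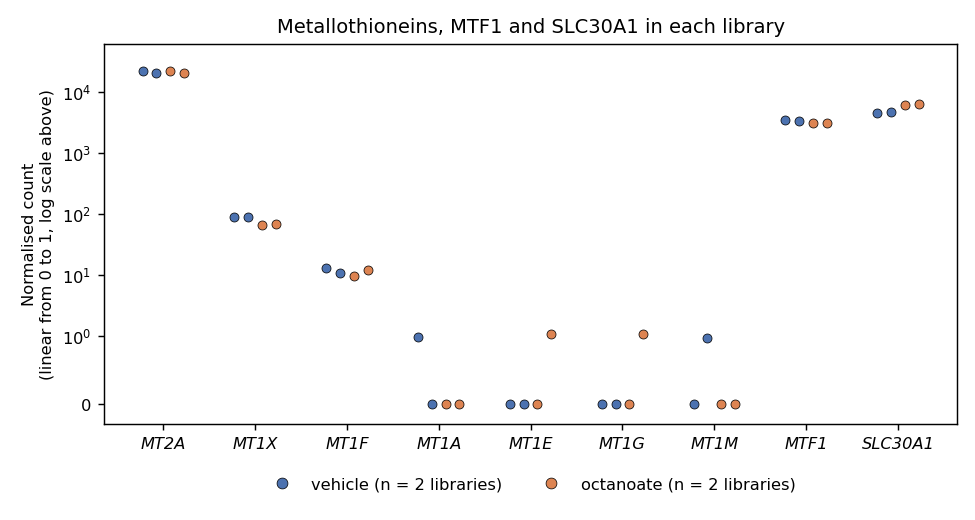
Normalised counts of the 9 members in each library, on an axis that is linear from 0 to 1 and logarithmic above. MT2A lies between 20256 and 21348, MT1X between 66.4 and 89.1, MT1F between 9.63 and 12.8, and MT1A, MT1E, MT1G and MT1M hold at most 1 read per library.

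The sum of the 7 metallothionein genes was 21407 and 20426 normalised counts in vehicle and 21424 and 20340 in octanoate. It does not depend on how reads were split among these genes. Any reads matching several genes that were dropped, or given to a gene outside the 7, would still be missing from it. The group means, 20916 ± 693 and 20882 ± 767 (SD, n = 2 each), differed by a log2 ratio of -0.0024, far less than the pooled SD of 0.05 between replicates on that scale. No test is given for a sum over chosen genes. MT2A made up 99.5% of the family reads in vehicle 1 (95% Wilson interval 99.4% to 99.6%) and 99.5% in vehicle 2 (99.4% to 99.6%). In octanoate its share was 99.6% in library 1 (99.6% to 99.7%) and 99.6% in library 2 (99.5% to 99.7%). The share of MT1X was 0.413% (0.336% to 0.507%) and 0.436% (0.356% to 0.535%) under vehicle. Under octanoate it was 0.310% (0.245% to 0.392%) and 0.341% (0.267% to 0.435%). The MT1X intervals of all 4 libraries overlap. These intervals cover counting error only, because reads without molecular identifiers are not independent molecules. Without MT2A the other 6 genes summed to 101 ± 0.935 under vehicle and to 79.7 ± 5.24 under octanoate (SD over 2 libraries). Most of this was MT1X (means 88.7 and 67.9), and most of the rest was MT1F (11.7 and 10.8).

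SLC30A1, the zinc exporter gene, rose under octanoate. Its normalised counts were 4386 and 4698 in vehicle and 6006 and 6319 in octanoate, so that both octanoate libraries were above both vehicle libraries. The means were 4542 ± 221 and 6163 ± 221 (SD, n = 2 each). The log2 difference was 0.44 (SE 0.06, 95% interval 0.32 to 0.56, limma adjusted p = 3.80e-06), a fold of 1.36 with an interval of 1.25 to 1.48. SLC30A1 was the only called member of the 5 tested, while 29.9% of all 20250 tested genes were called and 16.2% were called higher. The 1 in 5 is thus no more than the background gives. On the recovered reads, edgeR called 2 of the 5 members (SLC30A1 and MTF1) and 32.0% of the 20250 genes. DESeq2 called 1 member (SLC30A1) and 27.5% of the 17894 genes to which it gave an adjusted p, MT1F not among them. Without a trend in the variance prior the estimate was the same and the adjusted p was 0.0575, so the call ended under that setting.

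Expressed against MT2A in the same library, which removes any difference in library scaling, SLC30A1 was 20.6% and 23.1% of MT2A in vehicle and 28.1% and 31.2% in octanoate. The groups did not overlap on this ratio, with means of 21.8% ± 1.79 and 29.7% ± 2.17 (SD, n = 2 each). The ratio compares counts that are not corrected for gene length and has a meaning only between libraries.

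MTF1, the zinc sensor known to act on both kinds of promoter, had 3479 and 3318 normalised counts in vehicle and 3071 and 3107 in octanoate. Both octanoate libraries were below both vehicle libraries. The means were 3398 ± 113 and 3089 ± 25.8 (SD, n = 2 each). The log2 difference of -0.14 (SE 0.06, 95% interval -0.26 to -0.01) did not pass the test (limma adjusted p = 0.0948). It crossed the threshold with equal column totals (adjusted p = 0.0383) and with edgeR's quasi-likelihood test on the recovered reads (adjusted p = 0.0485). In all, the groups did not overlap for 3 of the 5 members tested, SLC30A1, MTF1 and MT1X, against 63.1% of all tested genes. SLC30A1 was the 1 with octanoate higher (32.6% of all tested genes), and MTF1 and MT1X were the 2 with octanoate lower (30.5%).

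**Figure D3:**
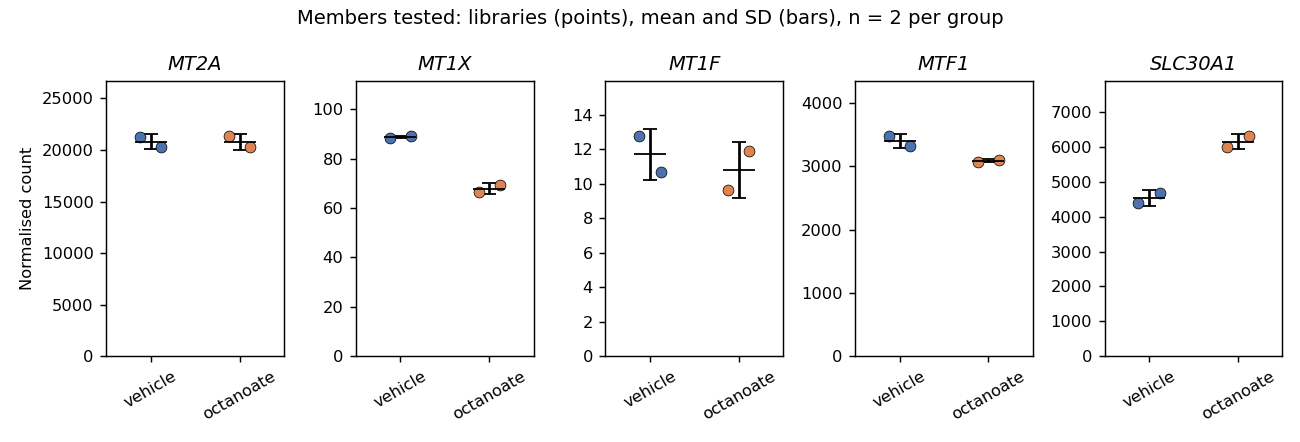
Normalised counts of the 5 members tested, by group, on axes that start at 0; points are libraries and bars give the mean and SD (n = 2). SLC30A1 moves from a mean of 4542 to 6163 with no overlap, MT2A has means of 20815 and 20802, and MT1X and MTF1 are lower in both octanoate libraries.

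The authors' deposited table lists 5 of the 9 members and gave the same order. In the authors' deposited table SLC30A1 had a log2 fold change of 0.44 (adjusted p = 1.64e-09), MTF1 one of -0.14 (adjusted p = 0.153), MT1X one of -0.39 (adjusted p = 0.455) and MT2A one of -0.00080 (adjusted p = 0.995). MT1F had a log2 fold change of -0.12 in the authors' deposited table and an adjusted p of exactly 1, as had 16253 genes there in all, the highest mean among them being 22.6. Of the genes with an adjusted p below 1 in the authors' deposited table, 25.1% were called.

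Levels of different genes are ranked here per kilobase of exon (GENCODE 29, all exons of a gene merged). The isoform shares above are shares of reads and are not corrected for gene length. For MT2A and MT1X the merged exons cover the whole gene (1299 and 1773 bases). If most of their reads come from a shorter transcript, their values per kilobase and ranks are too low. By mean over the 4 libraries MT2A had 16019 normalised counts per kilobase and ranked 131 of 29502 genes matched by name. SLC30A1 followed with 978 per kilobase, MTF1 with 404, MT1X with 44.2 and MT1F with 5.95. MT1A, MT1G, MT1E and MT1M had 0.620, 0.361, 0.258 and 0.257, and their order rests on 1 read each and is not resolved. Neighbours among the first 5 were separated by far more than the spread between libraries, and octanoate did not change their order.

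**Figure D4:**
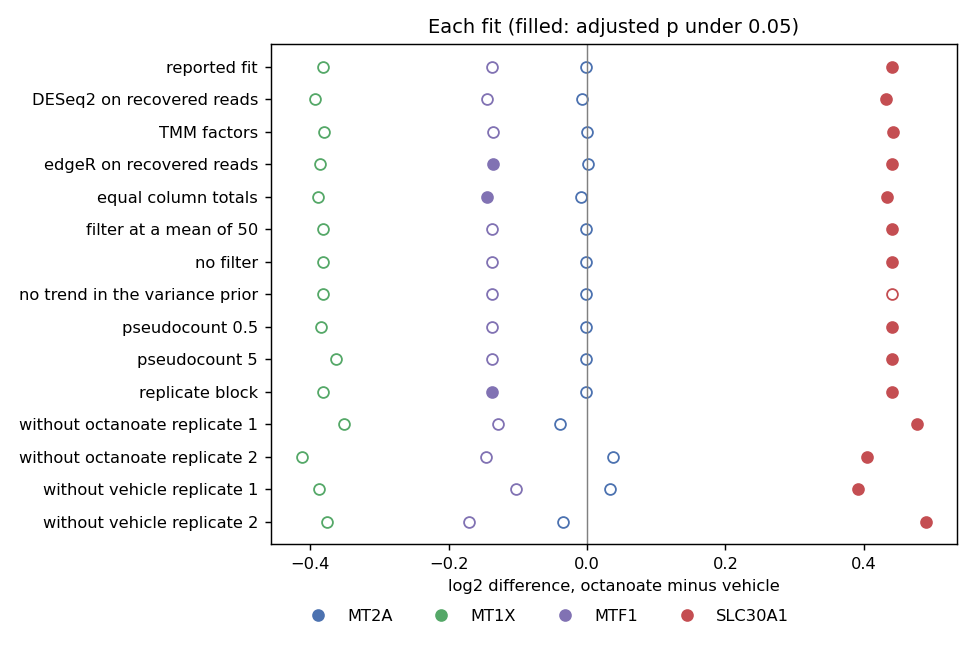
Log2 difference of octanoate minus vehicle for MT2A, MT1X, MTF1 and SLC30A1 under the reported fit and each alternative; filled points have an adjusted p under 0.05. SLC30A1 lies between 0.39 and 0.49 throughout, MT1X between -0.41 and -0.35, MTF1 between -0.17 and -0.10, and MT2A within 0.04 of 0.

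No other zinc exporter gene was called higher beside SLC30A1. Most members of the SLC30 (ZnT) family lower cytosolic zinc by moving it out of the cell or into organelles. Of 9 other family members 8 were tested. With limma 0 were called higher and 1 lower, 0 were higher at an unadjusted p under 0.05, and edgeR and DESeq2 also called 0 higher. Of all tested genes 16.2% were called higher and 13.7% lower. The median log2 difference was -0.01, against 0.0050 over all tested genes. SLC30A2, whose product ZnT2 loads zinc into vesicles, fell from 75.6 and 72.7 normalised counts in vehicle to 24.1 and 28.2 in octanoate. Its log2 difference of -1.47 (SE 0.25, limma adjusted p = 6.08e-05) was larger in size than that of SLC30A1, at a much lower count. SLC30A5, SLC30A6 and SLC30A9, named after their values were seen, had log2 differences of 0.0084, -0.03 and 0.0031, and their groups overlapped. Their limma adjusted p-values were 0.932, 0.740 and 0.976. The groups did not overlap for 3 of the 8, each with octanoate lower, against 63.1% of all tested genes (30.5% with octanoate lower). These were SLC30A2, SLC30A7 (log2 difference -0.12, limma adjusted p = 0.174) and SLC30A10 (log2 difference -0.35, limma adjusted p = 0.623).

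Several zinc importer genes were higher in the same libraries. The SLC39 (ZIP) family raises cytosolic zinc. Of 14 members 12 were tested, 5 were called higher and 1 lower (6 of 12, against 29.9% of all tested genes), and the median log2 difference was 0.12. SLC39A4, which encodes ZIP4, the importer known from intestinal zinc uptake, rose from 558 and 494 to 862 and 741 normalised counts (log2 difference 0.61, SE 0.09, limma adjusted p = 2.39e-05). SLC39A6, which encodes ZIP6, rose from 9040 and 8760 to 10192 and 10514 (log2 difference 0.22, SE 0.06, limma adjusted p = 0.00451). For both genes each octanoate library was above each vehicle library. The number of importer genes called higher was 1 with no filter on the mean and 0 without a trend in the variance prior.

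The other 3 importer genes called higher, all named after their values were seen so that the 5 are complete, had log2 differences of about the same size as SLC39A6. These were SLC39A8, whose product ZIP8 also carries manganese and cadmium (0.20, limma adjusted p = 0.0191), SLC39A14, whose product ZIP14 also carries iron (0.20, limma adjusted p = 0.00869), and SLC39A10 (0.20, limma adjusted p = 0.0199). SLC39A10, which MTF1 is known to repress when zinc is high, had 3078 and 3390 normalised counts in vehicle and 3703 and 3706 in octanoate. The importer called lower was SLC39A1, the widely expressed ZIP1, with 18625 and 16995 in vehicle and 16094 and 15416 in octanoate (log2 difference -0.18, limma adjusted p = 0.0271). In GENCODE 29 60.3% of the 50-base stretches of SLC39A1 occur in another gene, so its count is uncertain, and its adjusted p was 0.271 without vehicle 1 and 0.207 without octanoate 2. With any 1 library left out, 2 or 3 importer genes instead of 5 were called higher: 3 without vehicle 1, vehicle 2 or octanoate 1 and 2 without octanoate 2.

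**Figure D5:**
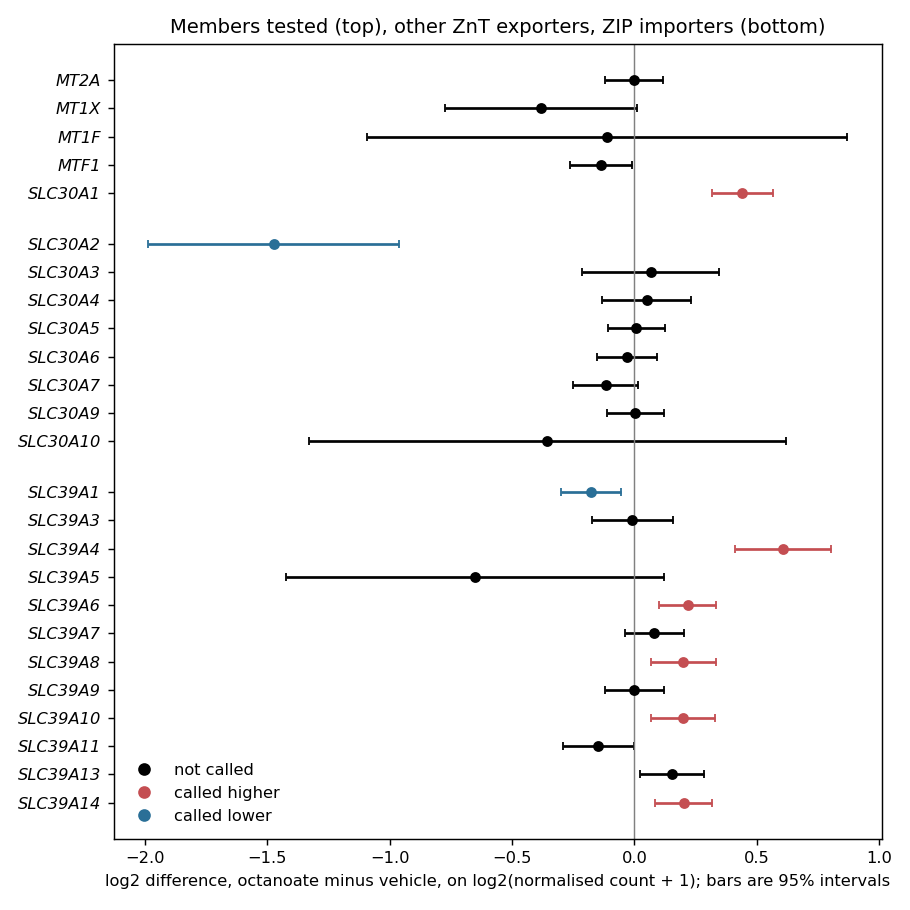
Log2 differences with 95% intervals for the members tested, the other ZnT exporters and the ZIP importers. SLC30A1 and 5 ZIP genes are marked as called higher, SLC30A2 and SLC39A1 as called lower, and MT2A sits at 0 with an interval of -0.12 to 0.12.

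Copper also binds metallothioneins, and genes of copper handling changed in both directions. All 13 listed genes were tested, 4 were called higher and 2 lower (16.2% and 13.7% of all tested genes), with a median log2 difference of -0.0037. SLC31A1, the copper importer CTR1, and STEAP3 were the other 2 called higher, named after their values were seen. ATOX1, a copper chaperone of the cytosol, rose from 4404 and 4026 to 6184 and 6155 normalised counts (log2 difference 0.55, SE 0.06, limma adjusted p = 1.48e-07). COX17, which carries copper to cytochrome oxidase, rose from 4746 and 4714 to 6557 and 5765 (log2 difference 0.38, SE 0.06, limma adjusted p = 5.87e-05). ATP7A, a copper-exporting pump, fell from 1449 and 1512 to 1199 and 1286 (log2 difference -0.25, limma adjusted p = 0.00986). SOD1, the copper and zinc superoxide dismutase, fell from 19894 and 19247 to 18026 and 16477 (log2 difference -0.18, limma adjusted p = 0.0206).

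Each of these 4 genes kept its direction when 1 library was left out, but the calls of the falling genes did not all last. ATP7A had an adjusted p of 0.110 without octanoate 1 and 0.0926 without vehicle 2, and SOD1 one of 0.329 without octanoate 2 and 0.118 without vehicle 1. COX17 shares 14.9% of its 50-base stretches with other genes, the pseudogene COX17P1 among them, and ATOX1 overlaps G3BP1 on the opposite strand, so both counts are uncertain. The counts of ATP7A, which overlaps PGK1 and AL356235.1 on the same strand, and of STEAP3, which overlaps STEAP3-AS1 on the opposite strand, are uncertain too.

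Iron handling served as a list for another metal. Of 14 tested genes 2 were called higher and 5 lower (16.2% and 13.7% of all tested genes), with a median log2 difference of -0.02. The 5 called lower became 1 without octanoate 2, 2 without vehicle 1 and 3 without octanoate 1, and the 2 called higher became 1 without octanoate 2 or vehicle 2. SLC25A37, the mitochondrial iron importer mitoferrin-1, rose from 4868 and 4902 to 5798 and 6027 normalised counts (log2 difference 0.27, limma adjusted p = 0.000731), and SLC39A14 was the other gene called higher. IREB2, an iron-regulated RNA-binding protein gene, fell from 11571 and 11785 to 9342 and 9999 (log2 difference -0.27, limma adjusted p = 0.000723). FTH1, the ferritin heavy chain, fell from 22305 and 21258 to 19060 and 15706 (log2 difference -0.33, limma adjusted p = 0.000734). FTH1 shares 57.4% of its 50-base stretches with 17 other genes, its adjusted p was 0.0781 without octanoate 2, and its value is uncertain. NCOA4, PCBP1 and PCBP2, named after their values were seen, were the others called lower. PCBP1 and PCBP2 share 46.9% and 30.7% of their 50-base stretches with other genes, so their counts are uncertain.

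Genes known to rise with cadmium or excess zinc by routes other than MTF1 were also listed. Of 11 tested genes 1 was called higher and 3 lower, or 36.4% against 29.9% of all tested genes, with a median log2 difference of -0.05. The 3 called lower became 2 without octanoate 2 and 1 without vehicle 1. HMOX1, the heme oxygenase gene and a classic cadmium target, chosen after its values were seen, had 843 and 836 normalised counts in vehicle and 771 and 749 in octanoate (log2 difference -0.14, limma adjusted p = 0.189). SLC7A11, the cystine importer gene, was the 1 that rose (log2 difference 0.24, limma adjusted p = 0.00447), though its adjusted p was 0.162 without octanoate 2 and 0.0518 without vehicle 1. The co-chaperone genes DNAJB1 and BAG3 fell, with log2 differences of -0.25 and -0.20 (limma adjusted p = 0.00183 and 0.0114), as did HSPA6, named after its values were seen. The adjusted p of BAG3 was 0.161 without octanoate 2 and 0.125 without vehicle 1. SLC7A11 and DNAJB1 overlap genes on the opposite strand. HSPA6 shares 45.5% of its 50-base stretches with HSPA7, so its count is uncertain.

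Genes with a profile like that of the metallothionein sum over the 4 libraries were sought among the 9002 genes whose mean was 1000 or more. Likeness was the Euclidean distance between log2 profiles centred on their means, with the metallothioneins set aside. The 5 nearest were RXRB (distance 0.0044), NDUFB9 (0.0074), YARS2 (0.0078), OSER1 (0.0080) and ADCY9 (0.0082). RXRB, for example, had 3231 and 3070 normalised counts in vehicle and 3225 and 3063 in octanoate. These profiles share the small gap between library 1 and library 2 of each group and no difference between the groups, and with 4 libraries they describe no more than that.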

How the data were processed

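RNA was sequenced from 4 A375 libraries. Per the submitters' processing notes, bcl2fastq 2.17, Trim Galore, STAR 2.4, Picard, HTSeq 0.9.1, DESeq2 and the build hg38 were used, with no role or order given; the annotation, the strand setting and the rule for reads matching several genes are not given in the sources used here. The deposited signal is a normalised count per gene and library, per the file name from DESeq2. In each library 100% of the values were multiples of its lowest value above 0 to within 0.01, so whole reads were recovered. The authors' deposited second table holds log2 fold changes with their errors, a test score, a mean signal, and p-values with adjusted p-values for 33533 genes.

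Octanoate was compared with vehicle on log2(normalised count + 1) for the 20250 genes whose mean was 10 or more, using limma 3.58.1 (R 4.3.3) with a trended variance prior. The p-values are two-sided and Benjamini-Hochberg adjusted across all of these genes, and called means an adjusted p under 0.05. Permuting 2 and 2 libraries exactly gives no p below 0.333. Replicates differed beyond sampling noise, with a chi-square per degree of freedom of 4.77 (vehicle pair) and 6.50 (octanoate pair). Alternatives included edgeR 4.0.16 and DESeq2 1.42.0 on the recovered reads. These methods and limma were also run on data simulated from these libraries with 200 genes changed. Far more genes were called in the real data, so that run does not measure how reliable the calls are. Named are all members, up to 2 called genes of each other list in each direction by smallest p, other called importers, and the nearest profiles. Some further genes were named outside this rule. The members and lists were chosen with earlier results of these data known. Sequences came from GENCODE 29 and RefSeq (GRCh38.p14).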

Additional observations from a re-analysis of the deposited data

How the results depend on the processing

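SLC30A1 was called in 13 of 14 alternatives, with a log2 difference of 0.39 to 0.49. MT1X was called in none (adjusted p 0.0555 to 0.388). MT2A was called in none either; its sign turned with TMM factors (0.00036) and with edgeR (0.00058), and it ran from -0.039 to 0.037 with 1 library left out. MT1F ran from -0.25 to 0.029 in the same fits; it had too few reads for the filter at a mean of 50 and for an adjusted p in DESeq2. The number of members called was 2 with edgeR and with equal column totals, through MTF1, and 0 without a trend in the variance prior; with 1 library left out it was 1. The family log2 ratio ran from -0.04 to 0.03 with 1 library left out and was -0.35 without MT2A, since MT1X then makes up most of the sum. The difference in MT2A's share of the family, octanoate minus vehicle, ran from 0.0748 to 0.130 percentage points.

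Over all tested genes, 6048 were called, 2595 with no filter and 1625 without a trend, and 4295 to 4757 with 1 library left out. Over the zinc, copper and iron lists, 19 genes were called, 8 with no filter, 2 without a trend and 10 to 16 with 1 library left out. The cause was not tested. No label gives a meaning to the replicate numbers. A fit with a replicate block called 8376 genes, 26 genes of these lists and 2 members, MTF1 beside SLC30A1 (adjusted p = 0.0120); the deviations of same-numbered libraries had a correlation of 0.126 across genes, from 2 pairs only.

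Depth limits MT1F and the 4 isoforms with single reads. For MT1F, a change inside the interval of its log2 difference, -1.09 to 0.87, or 0.469 to 1.82 as a fold, was not detectable. The 4 isoforms held at most 1 read per library, and a count of 0 allows up to 3 reads, or 2.89 to 3.25 normalised counts. A change of a few reads was not detectable in them. A rise far above that would have been seen, unless its reads were dropped or given to other genes.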

Other observations

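MT2A is also a known target of the glucocorticoid receptor, and a list of that receptor and 7 widely shared targets was followed beside it. Of 7 tested genes 2 were called higher and 2 lower (16.2% and 13.7% of all tested genes), with a median log2 difference of 0.08. ERRFI1, a feedback inhibitor of the EGF receptor, rose from 28712 and 27687 to 50384 and 51506 normalised counts (log2 difference 0.85, SE 0.06, limma adjusted p = 3.92e-11), and PER1, a clock gene, rose by 0.22 (limma adjusted p = 0.0189). The transcription factor gene KLF9 fell from 8551 and 7950 to 4429 and 4346 (log2 difference -0.91, SE 0.06, limma adjusted p = 1.66e-11), and the kinase gene SGK1 from 8184 and 7945 to 5067 and 5317 (log2 difference -0.64, SE 0.06, limma adjusted p = 6.59e-09). The adjusted p of PER1 was 0.180 without octanoate 1, 0.120 without vehicle 1 and 0.0543 without vehicle 2. ERRFI1 and PER1 overlap another annotated gene, so their counts are uncertain.

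Metal response element matches were also counted over all tested genes, as a description chosen after the data were seen. Of 11325 tested genes with a RefSeq promoter, 18.4% were called higher and 17.3% lower. Of the 1333 with at least 2 matches in the 250 bases before a start, 16.7% were called higher and 17.9% lower. Where a gene had several promoters, the promoter with most matches counted. Of the 69 with at least 4 matches, MT2A and MT1X among them, 12 were called higher and 13 lower, with a median log2 difference of -0.03.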
